A study of Sus scrofa with 12 samples.

Results

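AMP-activated protein kinase (AMPK) is encoded in the pig by 7 subunit genes, and all of them were taken here by their gene symbols: the alpha genes PRKAA1 and PRKAA2, the beta genes PRKAB1 and PRKAB2, and the gamma genes PRKAG1, PRKAG2 and PRKAG3. All 7 were found among the 30371 genes with a position in the RefSeq table of the pig genome (Sscrofa11.1), each as 1 locus. The rule uses gene names and no measured value. Longissimus muscle of 2-week-old piglets of Large White (LW), a lean breed of commercial herds, and of Meishan (MS), a breed native to China, was studied without any treatment or genetic modification. Each breed gave 2 H3K27ac BL-HiChIP libraries, which record pairs of DNA segments that lie close together where at least 1 of them carries acetylated histone H3 lysine 27, a mark of active promoters and enhancers. Each breed also gave 2 GRID-seq libraries, which record RNA together with the DNA it was ligated to in the nucleus. The libraries are called LW1, LW2, MS1 and MS2 in both assays, and the labels do not say whether the libraries of a breed came from different animals, so that p-values measure the spread between libraries only. In whole tissue, fewer cells of a type and less signal per cell cannot be told apart.

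AMPK senses the energy state of the cell and, when ATP falls, turns on pathways that make ATP and turns off pathways that use it. Each kinase complex holds an alpha subunit with the catalytic site, a beta subunit that scaffolds the complex and can bind glycogen, and a gamma subunit that binds adenine nucleotides. PRKAG3 encodes the gamma subunit found mainly in skeletal muscle, and in pigs it is known for its influence on muscle glycogen and meat quality, whereas PRKAG1 is expressed widely.

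The loop score of a gene is the sum of -log10 FDR over its loops, that is, those with an anchor (a 5-kb segment) at most 1 kb from a gene end. FDR stands for the false discovery rate of a loop. The loop lists held 57028 loops in LW1, 43282 in LW2, 45061 in MS1 and 33353 in MS2, all with an FDR under 0.01. The GRID-seq lists held 571, 681, 519 and 649 RNAs in LW1, LW2, MS1 and MS2, with 7172517 to 9943666 RNA reads per library on the listed RNAs. Of 11 marker genes of skeletal muscle fibres, all 11 had loops in every BL-HiChIP library, with loop scores that summed to 580 to 1380, and 6 or 7 had a listed RNA in each GRID-seq library. Marker genes of other cell types, in lists of 3 or 5 genes, were lower in sum, and a sum grows with list size. Values per gene were not compared. Those of adipocytes summed to 6.14 to 14.1, endothelial cells to 53.1 to 161 and fibroblasts to 77.4 to 183. Those of immune cells summed to 26.4 to 50.4 and satellite cells to 4.34 to 60.4, and the 3 erythroid markers had no loop. Fibroblast markers were higher in both LW libraries than in both MS libraries, at 149 and 183 against 77.4 and 104, and so were satellite cell markers, at 60.4 and 37.3 against 33.6 and 4.34, and adipocyte markers, at 9.06 and 14.1 against 7.56 and 6.14. Endothelial markers were lower in both LW libraries, at 53.1 and 69.8 against 83.7 and 161, and so were immune markers, at 30.2 and 26.4 against 50.4 and 45.4. The immune sums were CD68 alone, apart from CSF1R in MS1 (5.54). The adipocyte sums were CIDEC alone, apart from FABP4 in MS1 (2.20). Of the satellite cell markers, PAX7 scored 18.5 and 14.6 in LW and had no loop in MS. It was called higher in LW (log2 fold change 3.67, limma adjusted p = 0.804), as were 2.83% of all genes. CDH15 overlapped between breeds, at 37.5 and 22.7 against 33.6 and 4.34, and MYF5 had a loop in LW1 only (4.38). For RNA-chromatin signal, defined below, 7.49% of all genes were called higher in LW and 8.28% higher in MS. Among the markers, MYLPF (muscle fibre), TEK (endothelial), CSF1R and CD3E (immune), CDH15 (satellite cell) and HBB (erythroid) were called higher in LW. KDR (endothelial) was called higher in MS. At TEK, KDR, CSF1R, CD3E and HBB this signal came wholly from RNAs of other genes. In loop score, 21.1% of single genes had both LW libraries higher and 7.02% both MS libraries. Of the 3 satellite cell markers, 1 had an RNA listed in each LW library and none in the MS libraries. Of the 5 fibroblast markers, 2 had an RNA listed in every library, COL1A1 and COL1A2, and their reads went the other way. Both were called higher in MS (log2 fold change -0.50 and -0.45, edgeR Benjamini-Hochberg adjusted p = 0.00137 and 0.000494), as were 42.5% of the RNAs tested. The part of these differences in the results below was not tested.

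The loop score grows with the number of loops and with their statistical strength, so it follows the depth of a library as well as contact frequency. PRKAG3 and PRKAA2 carried most of the loops of the family. Of 47 different loops at the 7 genes, 17 were at PRKAA2 and 15 at PRKAG3, together 68.1% of them. The other 5 genes had 2 to 5 each. LW libraries held 37 of the loops and MS libraries 25, with 15 found in both breeds and 3 in all 4 libraries. A total of 31 (66.0%) were called in 1 library only, so most single loops had no second library behind them.

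**Figure D1:**
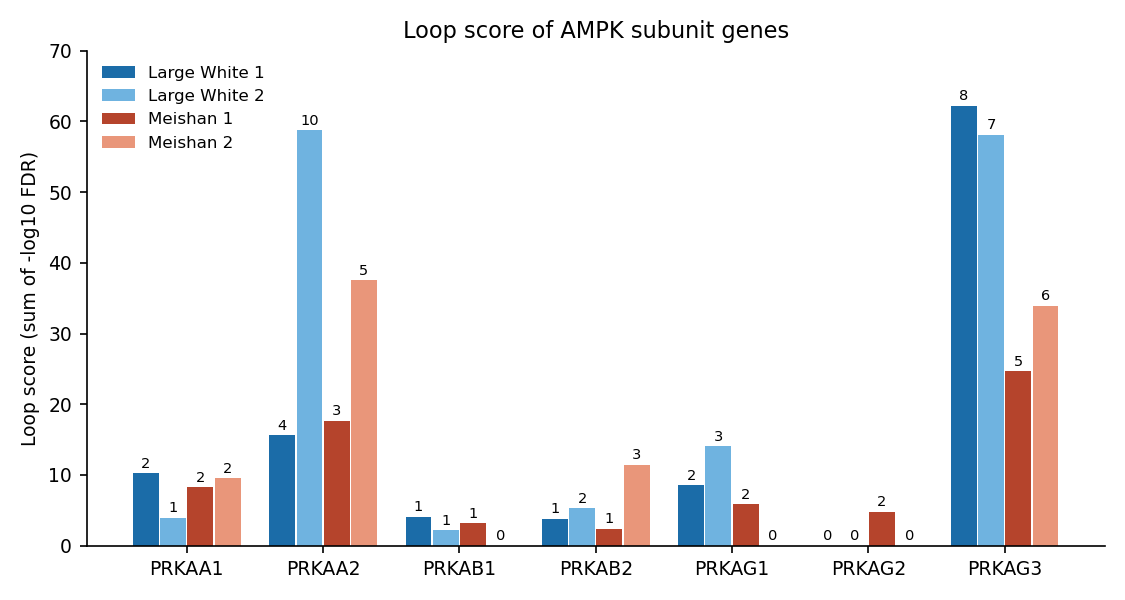
Loop score (sum of -log10 FDR, vertical axis) of each AMPK subunit gene in the 4 BL-HiChIP libraries, with the number of loops above each bar. PRKAG3 stands between 58.1 and 62.2 in the LW libraries and between 24.6 and 34.0 in the MS libraries, while PRKAA2 varies more within a breed than between breeds.

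Among the alpha genes, PRKAA1 (chr16:25745902-25783524), which encodes the catalytic subunit alpha 1 of many tissues, had loop scores of 10.2 in LW1, 3.91 in LW2, 8.27 in MS1 and 9.55 in MS2. The breeds overlapped, and only LW2 stood apart, with 1 loop against 2 in each of the other libraries. Its gene ends contacted the same far anchor 20 kb and 60 kb away, which holds ends of RPL37, a ribosomal protein gene, and of CARD6, a gene of a caspase recruitment domain protein. Both loops were called in LW1, MS1 and MS2. Their -log10 FDR was 7.36, 4.08 and 3.91 for the 20-kb loop and 2.88, 4.19 and 5.64 for the 60-kb loop. In LW2 the lower end of the gene was instead joined to a segment further inside CARD6, at 70 kb (3.91).

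PRKAA2 (chr6:155683392-155754283) encodes alpha 2, the catalytic subunit that prevails in skeletal muscle and heart. Its loop score was 15.6 in LW1, 58.8 in LW2, 17.7 in MS1 and 37.6 in MS2, from 4, 10, 3 and 5 loops. The second library was higher than the first in both breeds, and the LW libraries enclosed the MS libraries. A 5-kb loop between neighbouring anchors at the upper gene end was called in all 4 libraries, at 3.10 in LW1, 10.3 in LW2, 3.17 in MS1 and 8.60 in MS2. From the same end, a 15-kb loop into the gene was the strongest of the gene in LW2 (21.4) and MS2 (21.2) and was not called in LW1 or MS1. A 10-kb loop to the same inner anchor, from the adjacent 5-kb segment, was called in LW1 (6.92) and MS1 (12.0) instead. The replicate 1 libraries of both breeds thus had the 10-kb loop and the replicate 2 libraries the 15-kb loop, and whether these are the same contact was not tested. That inner anchor also holds an end of LOC102158444, an uncharacterized gene that overlaps PRKAA2.

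Further loops of PRKAA2 reached PLPP3, the neighbouring gene of a phospholipid phosphatase, at 45 to 85 kb, each in 1 library. The far anchor with an end of PLPP3 was reached from adjacent segments, at 45 kb in LW2 (2.71) and at 50 kb in MS2 (3.02). Its 5 longest loops spanned 1260 to 1445 kb, with -log10 FDR between 2.54 and 3.40. They were found in LW2, MS1 and MS2, each called in 1 library, and their far anchors held no RefSeq gene. The 1260-kb loop in LW2 (2.65) and the 1265-kb loop in MS2 (2.61) shared a far anchor and came from adjacent near segments. Whether such pairs are the same contact was not tested. No other subunit gene had a loop above 1 Mb.

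The beta genes had few loops. PRKAB1 (chr14:33201359-33217641), the gene of the widely expressed beta 1, scored 4.04 in LW1, 2.15 in LW2, 3.14 in MS1 and 0 in MS2, with 1, 1, 1 and 0 loops. The breeds overlapped, since MS1 lay between the LW libraries. Its 2 loops, 5 kb and 20 kb long, shared the far anchor that holds ends of CIT, the gene of citron kinase, and of LOC110256794. PRKAB2 (chr4:100378047-100394346), which encodes the beta 2 subunit typical of skeletal muscle and lies within the annotated span of CHD1L, a chromatin remodeller gene, scored 3.83 in LW1, 5.29 in LW2, 2.34 in MS1 and 11.4 in MS2. MS1 was the lowest library and MS2 the highest, so the breeds overlapped here too. A 60-kb loop from the lower end of PRKAB2 to a segment inside CHD1L was called in all 4 libraries, at 3.83, 3.09, 2.34 and 5.48 in LW1, LW2, MS1 and MS2. This loop cannot be assigned to PRKAB2 rather than to CHD1L, because both of its anchors lie in or beside CHD1L.

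Among the gamma genes, PRKAG1 (chr5:15033051-15049676) had a score of 8.54 in LW1, 14.1 in LW2, 5.87 in MS1 and 0 in MS2. Both LW libraries were above both MS libraries. Its loops are shared with its neighbours, as its ends lie 715 bp from DDN, the gene of dendrin, and 150 bp from KMT2D, the gene of a histone H3 lysine 4 methyltransferase, so that an anchor at PRKAG1 is also an anchor at these genes. A 20-kb loop to DDN was called in LW2 (7.26) and MS1 (3.49), and a 40-kb loop into KMT2D in LW2 (2.14) and MS1 (2.38). PRKAG2 (chr18:5475077-5744761), the longest of the genes at 270 kb and the gamma gene best known from the heart, had loops in MS1 only. Its score was 4.75 there and 0 in LW1, LW2 and MS2. The lower end that carried them is 112 bp from GALNTL5, and its loops were 20 kb and 130 kb long, the second to an anchor with an end of GALNT11, with -log10 FDR of 2.08 and 2.67.

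PRKAG3 (chr15:120859486-120866308) scored 62.2 in LW1, 58.1 in LW2, 24.6 in MS1 and 34.0 in MS2, from 8, 7, 5 and 6 loops. The LW libraries were close to each other and above both MS libraries, with a mean of 60.1 ± 2.93 (SD, n = 2) against 29.3 ± 6.59 (SD, n = 2). In order of the mean over all 4 libraries, PRKAG3 was first with 44.7 ± 18.3 (SD, n = 4) and PRKAA2 second with 32.4 ± 20.2, and their ranges overlapped. The 1-kb windows around gene ends are of the same size for every gene. The number of 5-kb segments they touch differs with the position of the ends, and the score is not corrected for it. PRKAA1 followed with 7.99 ± 2.84, PRKAG1 with 7.12 ± 5.84, PRKAB2 with 5.72 ± 3.99, PRKAB1 with 2.33 ± 1.74 and PRKAG2 with 1.19 ± 2.38, and among these last 5 genes each overlapped its neighbours in this order. No library of PRKAA1 reached the lowest library of PRKAA2. PRKAG3 was thereby among the better connected genes of the muscle: of 15431 genes with a loop in any library, 796 scored higher in LW1, 1106 in LW2, 2534 in MS1 and 1792 in MS2, which placed it above 94.8%, 92.8%, 83.6% and 88.4% of them.

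The GRID-seq lists give the strand of PRKAG3 as minus, so its start is at the upper end. Of its 15 loops, 14 were called from the segment at the start, chr15:120865001-120870000, to another segment, and the fifteenth, called in LW2 alone (16.7), joined this segment with the one at the other gene end. Distal anchors lay mostly on the downstream side, beyond the end of the gene: 13 of the 15 loops pointed there, across CYP27A1, TTLL4 and further genes, and 1 pointed upstream.

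The distal contact of PRKAG3 with the highest value was a 110-kb loop to chr15:120755001-120760000, a segment in TTLL4, the gene of a tubulin polyglutamylase, with an end of LOC106506368. It alone among the loops of the gene was found in every library, and its -log10 FDR was 13.7 in LW1, 15.9 in LW2, 7.31 in MS1 and 4.57 in MS2. Both LW libraries were above both MS libraries. An 80-kb loop to another segment of TTLL4 was called in LW1 (5.08) and LW2 (5.31) and in no MS library, the only loop of PRKAG3 that both libraries of a breed had and neither library of the other. A 160-kb loop to a segment with ends of ZNF142 and BCS1L, the latter a gene needed for assembly of respiratory complex III, was called in LW2 (4.55), MS1 (3.29) and MS2 (3.01). A loop not called in a library may still be present below the FDR limit.

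Closer to the gene, 7 loops of 15 to 60 kb ended in CYP27A1, the gene of sterol 27-hydroxylase, next to PRKAG3 on its downstream side. The 30-kb loop was called in LW1 (7.39), LW2 (8.94) and MS2 (6.87), and the 55-kb loop in LW1 (4.65) and MS1 (2.24). Each of the other 5 was called in 1 library. On the upstream side the 5-kb loop to chr15:120870001-120875000 was called in LW1 (21.5), MS1 (5.98) and MS2 (14.2), and it was the strongest loop of the gene in LW1 and in MS2. The longest loops, 505 kb to PNKD and TMBIM1 in MS2 (2.01) and 280 kb to USP37 in LW1 (2.53), and a 95-kb loop to TTLL4 in LW2 (2.66) were called in 1 library each.

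**Figure D2:**
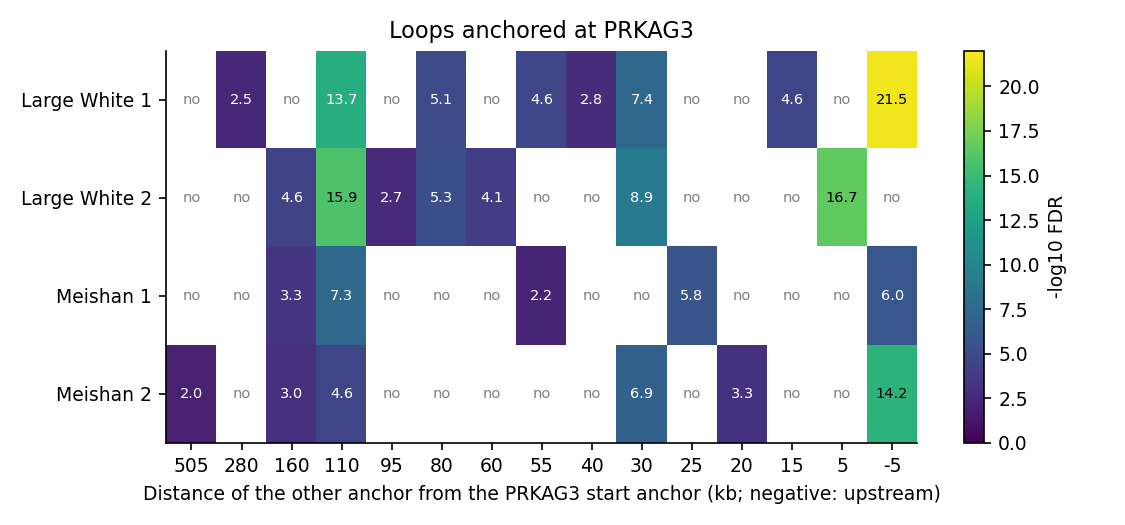
Each of the 15 loops of PRKAG3 (columns, by the distance in kb of the other anchor from the anchor at the gene start, upstream negative) in the 4 libraries (rows), coloured and labelled by -log10 FDR, with "no" where it was not called. The 110-kb column is filled in all 4 libraries, at 13.7 and 15.9 in LW against 7.31 and 4.57 in MS, and the 80-kb column in the LW libraries only.

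By exact segments, 12 loops of PRKAG3 were found in LW and 8 in MS, with 5 in common. When anchors up to 1 segment apart were counted as the same, 8 of the 12 LW loops had a counterpart in MS. Whether such neighbouring loops are the same contact was not tested. Counting a loop only where both libraries of its breed had it left 3 in LW and 3 in MS, with 1 in common, the 110-kb loop.

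Whether the loop score of the subunit genes differed between breeds was tested with limma on the quantile-normalized score, on the log2(score + 1) scale, with all 15431 genes. A gene was called at an unadjusted p under 0.05 and a log2 fold change above 1.5, the limits the study used. None of the 7 members was called by limma or by DESeq2, and none had an unadjusted p under 0.05, whereas 5.33% of all genes were called, 2.83% higher in LW and 2.51% higher in MS. The log2 fold change of LW over MS for PRKAG3 was 0.84 (SE 0.76, limma Benjamini-Hochberg adjusted p = 0.992). PRKAG1 had the highest value, 1.66 (SE 1.00, limma adjusted p = 0.992), and PRKAG2 the lowest, -1.57 (SE 0.92, limma adjusted p = 0.992). The order of PRKAG1 and PRKAG3 rested on MS2, in which PRKAG1 had no loop: without this library they stood at 0.53 and 0.99. PRKAA2 was at -0.10 (SE 0.96), PRKAA1 at -0.72 (SE 0.78), PRKAB1 at 0.29 (SE 0.86) and PRKAB2 at -0.57 (SE 1.03). For each gene the difference was smaller than 2 SE. No gene of the table reached an adjusted p under 0.05, the smallest being 0.804.

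As deposited, PRKAG3 and PRKAG1 were the 2 of 7 genes with both LW libraries above both MS libraries, and no member had the reverse. Over all genes the former held for 21.1% and the latter for 7.02%, and with 2 libraries against 2 an exact permutation test cannot give a two-sided p below 0.333. After quantile normalization, which gives each library the same distribution of scores, PRKAG3 stood at 63.5 and 50.7 in LW against 27.0 and 36.0 in MS.

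The genes with the loop score pattern most like PRKAG3, by distance in the normalized log2 score over the 4 libraries and leaving out genes within 2 Mb of it, were ZNF462, IFT46 and NET1. Their distances were 0.17, 0.18 and 0.24. ZNF462, a zinc finger gene, scored 61.6 and 58.4 in LW against 27.5 and 32.7 in MS. Over 4 points such a match is a description of these libraries.

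In GRID-seq, PRKAG3 was the only subunit gene whose own RNA was listed on chromatin, and it was listed in the LW libraries alone. It had 1682 reads in LW1 and 1795 in LW2, which is 151 and 161 reads per kb of the listed RNA. It ranked 358 of 571 listed RNAs in LW1 and 426 of 681 in LW2, below the median of 2824 and 2951 reads, so it was a minor RNA of these lists. For PRKAA1, PRKAA2, PRKAB1, PRKAB2, PRKAG1 and PRKAG2, no listed RNA in any library carried their name or overlapped them.

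Absence from a list does not show that an RNA was absent, because each list begins at a minimum, 441 and 446 reads in LW1 and LW2 and 432 and 455 in MS1 and MS2. Being listed in both LW libraries and neither MS library was not rare: it held for 67 of 734 named RNAs, or 9.13%. Among the 140 RNAs of both LW lists with reads within 2-fold of those of PRKAG3 in LW1, it held for 22, or 15.7%. The reverse, both MS lists and neither LW list, held for 85 RNAs. The test of RNA reads with edgeR covered the 308 RNAs listed in all 4 libraries and so included no subunit gene. Of those RNAs, 44.2% were called higher in LW and 42.5% higher in MS.

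PRKAG3 RNA was on its own locus. It covered 47 bins of 1 kb in LW1 and 44 in LW2, all on chromosome 15 and all around the gene, and no bin on another chromosome was listed. The listed RNA interval, chr15:120855194-120866332, extended further downstream than the RefSeq gene. The signal of a bin is corrected for background by the authors and is relative to the RNA's own reads, and neighbouring bins share signal because it is smoothed. Its peak was 2839 in LW1, 3.81 kb downstream of the gene start, and 4034 in LW2, 5.81 kb downstream. Of the signal, 96.7% and 97.5% lay within 10 kb of the RefSeq gene, and 98.7% and 99.1% within 10 kb of the listed RNA interval. The part inside the RefSeq gene was 50.2% and 47.0%, with 36.9% and 37.2% beyond the gene end and 12.9% and 15.8% upstream of the start. The profiles of the libraries had a Pearson r of 0.995 over 48 bins, of which 43 were listed in both; this describes smoothed bins that are not independent.

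**Figure D3:**
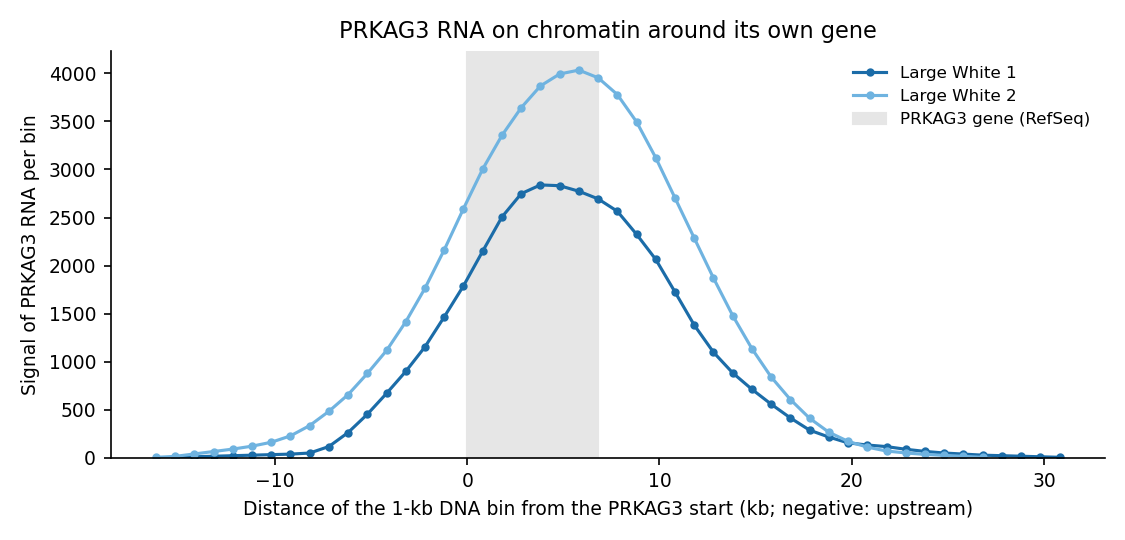
Signal of PRKAG3 RNA in each 1-kb DNA bin (vertical axis) by the distance of the bin from the gene start in kb, upstream negative, in LW1 and LW2, with the RefSeq gene shaded. Both curves peak inside the gene, at 2839 and 4034, and reach further downstream than upstream. The RNA was not listed in the MS libraries.

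On the segments that anchor the PRKAG3 loops, its RNA was lower at greater distance along the downstream side. The segment at the gene start had a signal of 7462 in LW1 and 10943 in LW2. On the downstream side the segment 15 kb away had 4635 and 7614 in these libraries, the segment 20 kb away 1208 and 1567, that at 25 kb 362 and 198, and that at 30 kb 83.4 and 5.09. The upstream segment 5 kb away, an anchor of the strongest loop of LW1, had 1555 and 3472. These near segments lie within the span of the smoothed signal around the gene, and the segments 40 to 505 kb away had none of it. At the 110-kb anchor in TTLL4 no RNA was listed in LW1, and the other libraries each had a different RNA, NEB in LW2 (10.1), the unnamed RNA ENSSSCG00000048037 in MS1 (4.62) and ENSSSCG00000048856 in MS2 (8.06). At the 80-kb anchor, TTN RNA was listed in LW1 (9.58) and LW2 (9.65) and was not listed in the MS libraries. The same anchor had U4 RNA in LW2 (14.2) and ENSSSCG00000048037 in MS1 (0.157). TTN RNA was likewise listed in the LW libraries and not in the MS libraries at the 30-kb and 95-kb anchors. At the 30-kb anchor, whose loop was called in MS2 as well, it had 2.90 in LW1 and 0.785 in LW2. At the 95-kb anchor, whose loop was called in LW2 alone, it had 0.033 in LW1 and 0.417 in LW2.

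The RNA-chromatin signal of a gene was summed over all RNAs on the bins within 5 kb of its ends. Because each RNA's signal is relative to its own reads, such sums mix scales. PRKAG3 had 35121 in LW1, 51562 in LW2, 29.5 in MS1 and 54.0 in MS2, so both LW libraries were far above both MS libraries. Its own RNA made up 99.8% and 99.2% of the signal in LW1 and LW2. Without it, 82.9 and 392 remained in LW against 29.5 and 54.0 in MS, and both LW libraries were still the higher ones. With all RNAs summed, this order held for 16.7% of all genes. In LW2, 344 of the remainder was RNA of TNS1, which was listed at PRKAG3 in that library only. The rest in LW2 was TTN RNA at 47.7, below the 54.0 of MS2.

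By limma on the quantile-normalized sums, on the log2(signal + 1) scale, PRKAG3 was higher in LW by 9.55 (SE 0.88, unadjusted p = 0.000611, limma Benjamini-Hochberg adjusted p = 0.108). It was 1 of 7 members called at an unadjusted p under 0.05 and a log2 fold change above 2, while 15.8% of 23302 genes were called, 7.49% higher in LW and 8.28% higher in MS. The adjusted p is the smallest in the table, shared by 197 genes, and does not reach 0.05. With RNAs of other genes only, the log2 fold change was 1.62 (SE 0.94, limma adjusted p = 0.608), and PRKAG3 was no longer called. The call thus rested on PRKAG3's own RNA, which the MS lists lack. Of 105 genes that overlap an RNA listed in both LW libraries and neither MS library, 86 (81.9%) were called higher in LW.

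**Figure D4:**
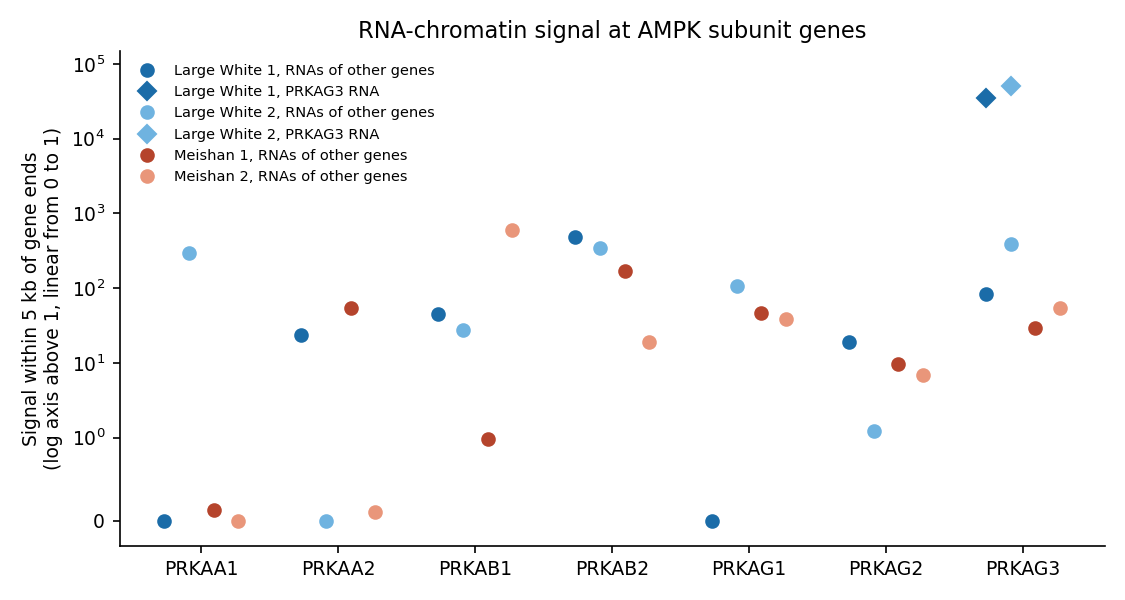
RNA-chromatin signal within 5 kb of the ends of each subunit gene (vertical axis, logarithmic above 1 and linear from 0 to 1) in the 4 GRID-seq libraries, with RNAs of other genes as circles and PRKAG3's own RNA as diamonds. The diamonds, at 35038 in LW1 and 51170 in LW2, stand far above all circles, whose highest value is 597.

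At the other subunit genes the signal came wholly from RNAs of other genes and was low. PRKAB2 had 484 in LW1, 347 in LW2, 168 in MS1 and 18.9 in MS2, with both LW libraries above both MS libraries, as held for 16.7% of all genes. Nearly all of it was the RNA of PDE4DIP, the gene of myomegalin, which lies 253 kb from PRKAB2 on the same chromosome and was on PRKAB2 in all 4 libraries, at 484, 346, 150 and 18.9. The log2 fold change was 1.97 (SE 2.06, limma adjusted p = 0.672), so the breeds did not differ beyond the spread of the libraries. PRKAB1 had 45.0, 27.7, 0.981 and 597 in LW1, LW2, MS1 and MS2. The LW signal was RNA of MYO18B, an unconventional myosin gene 10234 kb away, and the MS2 value was mostly RNA of HSPB8, a small heat shock protein gene 408 kb away, at 593.

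PRKAA1 had 0 in LW1, 294 in LW2, 0.127 in MS1 and 0 in MS2, and the LW2 value was the RNA of GHR, the growth hormone receptor, 1343 kb away. PRKAA2 had 24.0, 0, 54.6 and 0.108, PRKAG1 had 0, 107, 46.9 and 39.2, and PRKAG2 had 19.1, 1.23, 9.79 and 6.80 in LW1, LW2, MS1 and MS2. The breeds overlapped in each of these 4 genes. None of the 6 was called by limma, with adjusted p between 0.656 and 0.999.

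Over the 7 genes, RNAs of other genes from 16 loci, listed under 17 names because 1 unnamed locus carries a different label in MS1 and MS2, formed 29 pairs of subunit gene and RNA, of which 23 were listed in 1 library and 2 in all 4. The second of these 2 was TTN RNA, from the gene of the giant sarcomere protein titin, on PRKAG3. It was at 38.1 in LW1, 47.7 in LW2, 29.5 in MS1 and 12.2 in MS2, from a gene 36358 kb away on the same chromosome. Both LW libraries were above both MS libraries, as held for 16.7% of all genes with all RNAs summed. The LW2 value adds 36 lines over 18 bins, against 18 lines over 18 bins in LW1 and MS1. Whether LW2 stays above MS1 without the repeated lines was not tested. TTN RNA had 697633 to 1016278 reads per library and was also found at PRKAA2, PRKAB1 and PRKAB2 in MS libraries. Besides TTN, PRKAG3 had RNA of NEB, the gene of nebulin, in LW1 (44.8), of TNS1, the gene of tensin 1, 682 kb away, in LW2 (344), and of CMTM4 in MS2 (33.5).

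**Figure D5:**
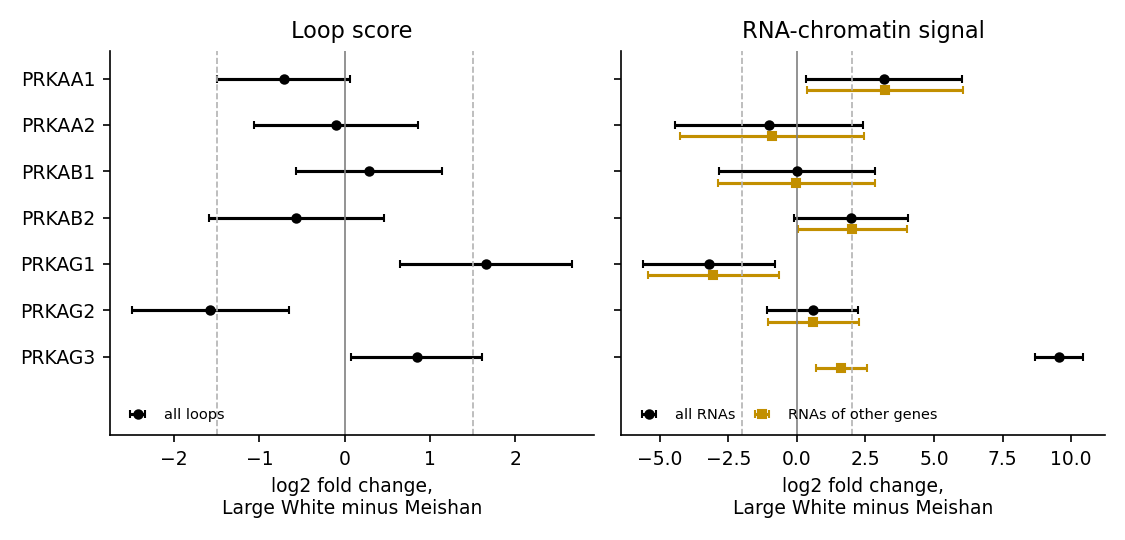
Log2 fold change of LW over MS (horizontal axis; points with bars of 1 SE, limma) of each subunit gene, for the loop score at the left and the RNA-chromatin signal at the right, with the fold limits of a call as dashed lines. PRKAG3 RNA-chromatin signal stands at 9.55 with all RNAs and at 1.62 with RNAs of other genes only.

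The genes around AMPK were described by 3 lists. Of 17 upstream regulators, 15 had a loop in any library and none was called for the loop score, against 5.33% of all genes (median log2 fold change -0.12, against 0.02 for all genes tested). For RNA-chromatin signal 2 of 17 were called higher in LW and 1 higher in MS, against 7.49% and 8.28% of all genes (median log2 fold change -0.49, against -0.05 for all genes). SESN1, the gene of a stress-induced sestrin, had a signal of 4174 and 5005 in LW against 536 and 683 in MS, a log2 fold change of 2.72 (limma adjusted p = 0.308), and its RNA was listed in LW only, with 25607 and 28468 reads. Without RNAs that overlap SESN1 the LW signal was 532 and 920, and the breeds overlapped. CAMKK2, a kinase that phosphorylates AMPK in response to calcium, had 136 and 708 in LW against 24.4 and 13.2 in MS (log2 fold change 3.87, limma adjusted p = 0.267). STK11, the gene of the main AMPK kinase LKB1, had 0.0261 and 10.4 in LW against 12043 and 13171 in MS, all from RNAs of other genes (log2 fold change -10.84, limma adjusted p = 0.108).

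Of 25 substrates and targets, 21 were tested for the loop score, with 1 called higher in LW and none higher in MS, against 2.83% and 2.51% of all genes (median log2 fold change -0.08, against 0.02 for all genes). This was ACACB, the acetyl-CoA carboxylase of fatty acid oxidation control, at 13.3 and 8.30 in LW and without a loop in MS (log2 fold change 3.09, limma adjusted p = 0.804). For RNA-chromatin signal none of 24 was called higher in LW and 4 were called higher in MS, against 7.49% and 8.28% of all genes (median log2 fold change -1.37, against -0.05 for all genes). PPARGC1A, the gene of the coactivator of mitochondrial biogenesis, had 0 and 20.0 in LW against 1419 and 1937 in MS (log2 fold change -8.80, limma adjusted p = 0.187). Its RNA was listed in MS only, with 22025 and 26233 reads, and without it the MS signal was 14.1 and 15.8. HDAC7, a class IIa deacetylase gene, likewise had its RNA listed in MS only, with 2211 and 2678 reads (log2 fold change of the signal -5.30, limma adjusted p = 0.187). PFKFB2 (log2 fold change -5.86, limma adjusted p = 0.173) and TBC1D4 (-4.31, limma adjusted p = 0.234) were the other 2, with signals of at most 53.2.

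In the test of RNA reads, GYS1, the gene of muscle glycogen synthase, was higher in LW, with 2478 and 2728 reads against 1596 and 1929 (log2 fold change 0.40, edgeR Benjamini-Hochberg adjusted p = 2.96e-05). CPT1B, the gene of the muscle carnitine palmitoyltransferase, had 1634 and 1843 reads in LW against 1592 and 1915 in MS and was higher in MS after normalization (log2 fold change -0.18, edgeR adjusted p = 0.00113). Since 86.7% of the RNAs tested were called, such a call is common in these lists.

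Of 13 kinases related to AMPK, 8 were tested for the loop score and 1 was called, against 5.33% of all genes (median log2 fold change -0.34, against 0.02 for all genes). It was NUAK2, with 0 and 2.69 in LW against 39.6 and 10.4 in MS (log2 fold change -3.67, limma adjusted p = 0.804). For RNA-chromatin signal 1 of 12 was called, against 15.8% of all genes (median log2 fold change -1.01, against -0.05 for all genes). It was SIK1, a salt-inducible kinase gene, with 12.3 and 61.4 in LW against 62540 and 62921 in MS (log2 fold change -11.23, limma adjusted p = 0.108). Without RNAs that overlap SIK1 the MS signal was 8.62 and 76.0. As at PRKAG3 and SESN1 in the LW libraries, most of the signal at PPARGC1A and HDAC7 in the MS libraries was RNA of the locus itself. RNAs of these names were listed there. At SIK1 it was RNA that overlaps the gene, and no library listed an RNA named SIK1.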

How the data were processed

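Processed lists of 4 BL-HiChIP and 4 GRID-seq libraries from longissimus muscle were used, grouped by breed from the sample titles. The members follow from gene names alone, but the choice of this gene family, the gene lists, tests and alternatives was made with earlier results of these data known. For BL-HiChIP, the authors mapped reads to Sscrofa11.1 with BWA-MEM, removed duplicates with Pairtools and called loops per library with FitHiChIP in 5-kb bins. The value the authors deposited per loop was read as an FDR (q-value), since it ends just under 0.01. No contact counts were used here. For GRID-seq, reads were mapped with Bowtie2, and the lists the authors deposited give the count of reads per RNA and a background-corrected signal per RNA and 1-kb bin. These readings come from the values, as the lists carry no header. Lines repeated for an RNA and bin were added, which affects 1125 to 2036 pairs per library and, at the members, TTN RNA in LW2.

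RefSeq gives no strand here, so both gene ends were used, with windows of 1 kb for loops and 5 kb for RNA. FDR values of 0 were set to 1e-300. Scores were quantile-normalized and compared with limma 3.58.1 in R 4.3.3 with a pseudocount of 1, in place of the DESeq2 named in the study, because the score is not a count. This scale understates changes of low genes. Reads per RNA were compared with edgeR 4.0.16 (quasi-likelihood, TMM). DESeq2 1.42.0 was an alternative. The tests were checked on simulated data. Named genes were the members, genes with an end on the far anchor of a member loop called in at least 2 libraries or of each member's strongest loop, RNAs on member bins, the 3 genes most like PRKAG3, and up to 4 called genes per list. Results for 1 RNA named by this rule are not reported here. Other genes at anchors or beside the members (such as USP37, PNKD, TMBIM1, PLPP3, TTLL4, CYP27A1, CHD1L and KMT2D) were named after their values were seen. Python 3.11.15 with pandas 2.3.3, numpy 2.4.6 and matplotlib 3.10.9 was used. No sequence is shown, and expression, other ChIP-seq and variants were not analysed here.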

Additional observations from a re-analysis of the deposited data

How the results depend on the processing

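PRKAG3 kept its direction and its side of the threshold in loop score under all 13 alternatives (log2 fold change 0.25 to 1.03, limma or DESeq2 adjusted p 0.608 to 1). Its RNA-chromatin signal kept both under 10 of 11 alternatives, with adjusted p from 0.0672 to 0.353. With RNAs of other genes only it was at 1.62 (limma adjusted p = 0.608), not called, and 0 members were called, since its own RNA is left out there.

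No member was called for loop score except PRKAG2, in MS, with a pseudocount of 0.1 (1 member, log2 fold change -4.13) and without MS2 (-2.69), so that leaving out each library in turn gave 0 to 1 members. For RNA-chromatin signal, leaving out a library gave 1 to 2 members, the second being PRKAA1 without LW1 (6.87), whose signal is that of GHR RNA in LW2. PRKAA2 changed the sign of its small loop difference, to 0.23 without normalization, 0.23 with a 5-kb window, 0.39 by the number of loops and 0.12 by DESeq2, and ranged from -1.04 to 0.93 without 1 library. PRKAB1 was at -0.84 with loops of an FDR of at most 0.001 and from -0.30 to 0.78 without 1 library, PRKAB2 from -1.78 to 0.53, and PRKAG1 from 0.53 (without MS2) to 2.56. For RNA-chromatin signal without 1 library, PRKAA1 ranged from -0.55 to 6.87, PRKAA2 from -4.63 to 2.71, PRKAB1 from -3.70 to 4.32, PRKAB2 from -0.39 to 4.60 and PRKAG2 from -1.16 to 2.03. PRKAB1 was at -0.45 with a 10-kb window and at -0.016 with RNAs of other genes only, and PRKAG2 at -0.45 without normalization and -0.49 with equal totals. None of these values other than those named was called, and the cause was not tested.

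Of the loops at the 7 genes, an FDR of at most 0.001 left 22 in LW and 16 in MS. Those called in both libraries of a breed were 5 in LW and 7 in MS, with 3 in common. Allowing anchors 1 segment apart, 23 LW loops were also in MS. For PRKAG3, these counts were 3, 3 and 1 for loops in both libraries, and 8 with anchors 1 segment apart.

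Over all genes, calls for loop score (436 in LW, 387 in MS) were 862 in LW without normalization, 718 in LW with equal totals, 957 in MS with a pseudocount of 0.1, 88 and 68 by the number of loops, 100 and 146 by DESeq2, and 300 to 884 in LW and 448 to 876 in MS without 1 library. For RNA-chromatin signal (1746 and 1930) they were 1380 to 3231 in LW and 1640 to 3016 in MS without 1 library. For RNA reads (136 and 131) they ranged from 103 to 161 and from 99 to 140. With 1 library left out, the lone library of a breed was assumed to vary like the others.

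The breeds share replicate numbers, but nothing states that a number marks a shared animal or day. Deviations of same-numbered libraries correlated at 0.35 in loop score, -0.01 in RNA-chromatin signal and 0.94 in RNA reads. With the replicate block, 696 genes were called in LW and 592 in MS for loop score, no call of a member changed, and PRKAG3 had a limma adjusted p of 0.742 for loop score and 0.353 for RNA-chromatin signal.

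Depth limits these results through the lists: loops above the FDR limit and RNAs below 432 to 455 reads, depending on the library, are not in them.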
